A study of Homo sapiens with 6 samples.

Results

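The genes described here encode the subunits of the mitochondrial respiratory chain and of ATP synthase. They were taken by a rule on gene symbols: symbols beginning NDUFA, NDUFB, NDUFC, NDUFS or NDUFV with a number, the SDH subunits, UQCR, COX4 to COX8 and ATP5 symbols without pseudogenes, and the 13 protein-coding genes of mitochondrial DNA. The rule took 87 of the 26195 gene symbols in the files. Of these, 13 are mitochondrial and 74 match the nuclear patterns. Of the 74, the antisense RNAs NDUFA6-AS1 and NDUFB2-AS1 and the readthrough ATP5J2-PTCD1 encode no subunit, held between 3 and 21 UMIs each over all libraries, and were left out of sums and counts, which leaves 71 nuclear genes. A few subunits were not analysed here, among them SDHD, COX7B and UQCR11, so each sum covers the listed genes and not a whole complex.

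The respiratory chain is built from both genomes. Complexes I, III and IV and ATP synthase (complex V) combine nuclear subunits, which are made in the cytosol and imported, with mitochondrial subunits that are transcribed and translated inside the organelle, whereas complex II is wholly nuclear. Mitochondrial DNA is transcribed as long polycistronic RNAs that are cut into single messengers, and nuclear subunit genes are each transcribed from their own promoter, for many of which the factors NRF1, GABPA and YY1 are known regulators. The level of a messenger says nothing of oxygen consumption or of assembled complexes, which were not measured.

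The data came from PC9, a lung adenocarcinoma cell line whose growth depends on a mutated EGFR. RNA was captured by Drop-seq, in which droplets pair single cells with barcoded beads and each molecule is counted by its unique molecular identifier (UMI), near the 3′ end of the messenger. There was 1 library per condition. The series set erlotinib-treated cells with altered KDM5 histone demethylase activity beside cells without the drug.

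All 4 erlotinib libraries received 2 µM of the EGFR kinase inhibitor erlotinib for 1 day. The CPI-455 library also received 6.25 µM of this KDM5 inhibitor, for 4 days, and grew in 5% serum without virus. The KDM5A shRNA library carried a pLVTHM lentivirus with GFP, and erlotinib began on day 4 after transduction. The library labelled KDM5A and KDM5B shRNA carried 2 such viruses, and erlotinib began on day 5. The KDM5A cDNA library carried a pLenti virus with a CMV promoter driving tagged KDM5A, and erlotinib began on day 6. All transduced libraries were in 10% serum. The references were a scrambled shRNA library, transduced and without drug in 10% serum, and an untreated library without virus or drug in 5% serum. No library had erlotinib alone, so erlotinib and the KDM5 manipulations cannot be told apart. Values of the erlotinib libraries are given in the order CPI-455, KDM5A shRNA, KDM5A and KDM5B shRNA, and KDM5A cDNA.

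A barcode was kept as a cell if it reached 500 UMIs and mitochondrial transcripts took no more than 20% of them. Kept cells numbered 202, 374, 152 and 131 in the erlotinib libraries, against 263 with scrambled shRNA and 1166 in untreated cells, and the summed UMIs ran between 590091 and 3956647 per library. Levels are in CPM, UMIs scaled to the same total in each library, and so are relative to that total. Median depth per cell was 2986 to 3763 UMIs in the erlotinib libraries, against 3343 with scrambled shRNA and 1494 in untreated cells. The library with both shRNA viruses had 33 barcodes over the mitochondrial limit, against 3 to 13 in the others. KDM5A was lower with KDM5A shRNA (56.4 CPM) and with both shRNAs (41.3 CPM) than with scrambled shRNA (81.9 CPM), and stood at 164 CPM with KDM5A cDNA. KDM5B stood at 102, 151, 138 and 94.9 CPM in the erlotinib libraries, against 46.4 CPM with scrambled shRNA and 60.4 CPM in untreated cells. It was therefore higher in every erlotinib library than in both others. In the library labelled KDM5A and KDM5B shRNA it was not lower than with scrambled shRNA, which had no erlotinib. All 6 epithelial markers were detected in every library, at a summed 5431 to 8831 CPM. Fibroblast and endothelial markers in the files summed to between 0 and 12.4 CPM per list. The 2 leukocyte markers in the files summed to 40.1, 38.8, 38.6 and 15.3 CPM in the erlotinib libraries, against 3.09 CPM with scrambled shRNA and 8.34 CPM in untreated cells, so they moved with the groups, and their part in the results was not tested. Between libraries, 1 barcode was shared, by the CPI-455 library and the library with both shRNAs.

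The mitochondrial and the nuclear genes stood on opposite sides of the libraries without drug. Summed over the 13 mitochondrial genes, the level was 63773, 46269.5, 55059 and 58230.0 CPM in the erlotinib libraries, against 35499 CPM with scrambled shRNA and 31608 CPM in untreated cells. Summed over the 71 nuclear genes it was 18410.1, 19108, 18503 and 19441 CPM in the erlotinib libraries, against 22089 CPM with scrambled shRNA and 24943 CPM in untreated cells. Neither sum overlapped between the groups: every erlotinib library lay above both others for the mitochondrial genes and below both for the nuclear genes. The means were 55833 ± 7322 CPM with erlotinib and 33554 ± 2751 CPM without for the mitochondrial sum, and 18865 ± 493 CPM with erlotinib and 23516 ± 2018 CPM without for the nuclear sum (SD, n = 4 and 2 libraries). As a share of non-mitochondrial UMIs, which the mitochondrial level cannot dilute, the nuclear genes took 2.03%, 2.06%, 2.01% and 2.12% in the erlotinib libraries, against 2.33% with scrambled shRNA and 2.60% in untreated cells.

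The ratio of mitochondrial to nuclear UMIs combines both. It was 3.46, 2.42, 2.98 and 3.0 in the erlotinib libraries, against 1.61 with scrambled shRNA and 1.27 in untreated cells. On the log2 scale the ratio averaged 1.56 ± 0.21 with erlotinib (SD, n = 4) and 0.51 ± 0.24 without (SD, n = 2), a difference of 1.04, or 2.06-fold. The difference exceeds the SDs of both groups. No test was run on the ratio, since the genes were chosen with earlier results of these data known.

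**Figure D1:**
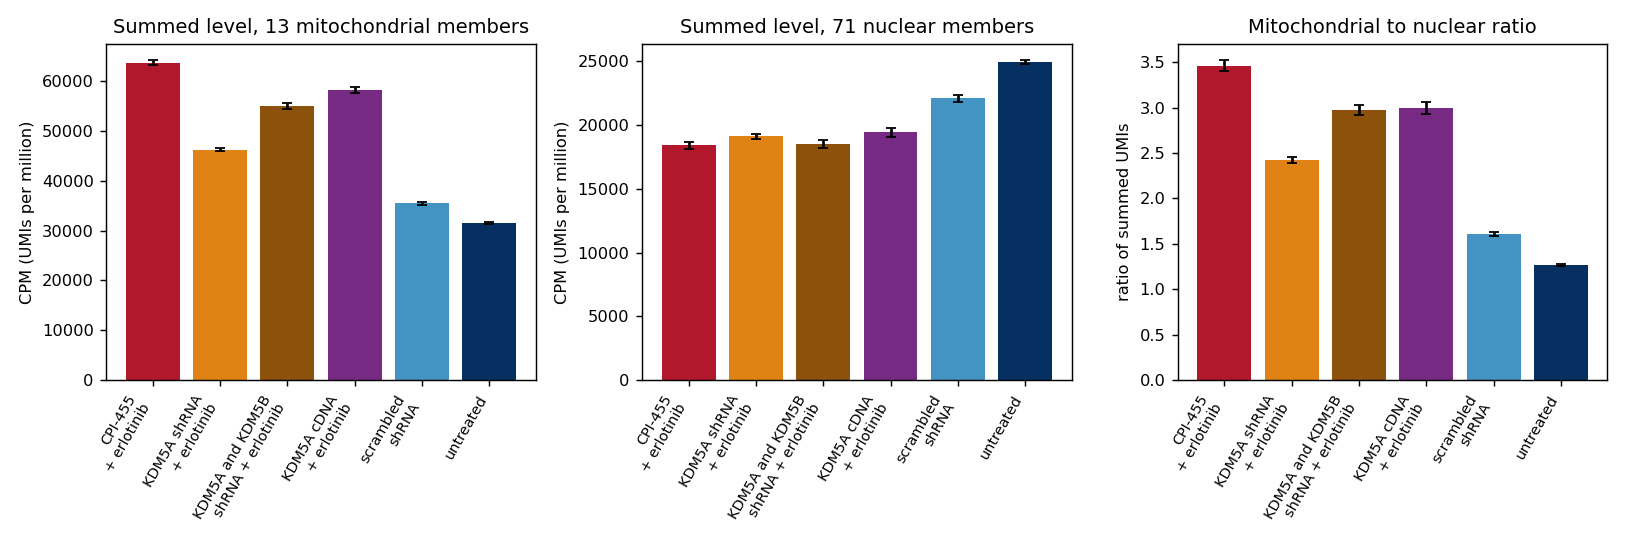
Summed level of the 13 mitochondrial genes (left), of the 71 nuclear genes (middle), both in CPM, and their ratio (right), with 1 bar per library and 95% intervals for counting error only. The 4 erlotinib libraries lie above both others in the left and right panels and below both in the middle panel.

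The shift in the ratio was present in each complex that draws on both genomes. For complex I the ratio was 3.97, 2.63, 3.56 and 3.72 in the erlotinib libraries, against 2.03 with scrambled shRNA and 1.37 in untreated cells. For complex III, whose only mitochondrial subunit is cytochrome b, it was 1.73, 1.17, 1.33 and 1.26 in the erlotinib libraries, against 0.936 with scrambled shRNA and 0.704 in untreated cells. For complex IV it was 5.06, 3.69, 4.22 and 4.13 in the erlotinib libraries, against 2.39 with scrambled shRNA and 2.02 in untreated cells. In none of these 3 did the groups overlap. For ATP synthase the ratio was 1.75, 1.09, 1.39 and 1.41 in the erlotinib libraries, against 0.643 with scrambled shRNA and 0.607 in untreated cells, again without overlap. In complexes III and V mitochondrial UMIs outnumbered nuclear UMIs in every erlotinib library and in neither of the others. Within the erlotinib group, CPI-455 had the highest and KDM5A shRNA the lowest ratio in every complex. With no limit on mitochondrial UMIs per cell, the library with both shRNAs had the highest ratio over all complexes, 3.76, above 3.58 with CPI-455.

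Per gene, erlotinib libraries were compared with the 2 others by edgeR's quasi-likelihood test over all 10445 genes that passed a filter on low counts. At a Benjamini-Hochberg adjusted p under 0.05, 10.0% of all genes were higher with erlotinib and 13.5% were lower. Of the 13 mitochondrial genes, all of which passed the filter, 5 were higher and 0 were lower by edgeR, 0 also at an unadjusted p under 0.05, with DESeq2 and with limma-voom. All 13 had positive folds, with a median log2 fold of 0.64, beside 0.01 over all genes. In 9 of the 13 every erlotinib library lay above both others, which was so for 18.6% of all genes. The nuclear genes did not stand out from the background in calls of lower level: 8 of the 68 that passed the filter (11.8%) were lower. Higher were 0 of the 68, beside 10.0% of all genes. At an unadjusted p under 0.05 the edgeR counts were 17 lower and 2 higher. Over all 10445 genes these counts were 2108 lower and 1861 higher. DESeq2 called 0 and limma-voom 1 nuclear gene higher, SDHC. The median log2 fold of the 68 was -0.25, with 51 negative and 17 positive folds. Every erlotinib library lay below both others in 29 of the 68, beside 26.7% of all genes, and above both in 5. The filter left out ATP5L2, COX6B2 and NDUFA4L2, each under 7 CPM in every library. In simulated counts with this design the test recovered 98% of genes raised by 2 on the log2 scale and 84.6% of those lowered by 2. It recovered 8.16% of genes raised by 1 and 23.8% of those lowered by 1. The simulation changed 200 of 10134 genes, a smaller share than was called in the real counts. Its recovery therefore need not hold for the real fit, and a gene not called may still differ.

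**Figure D2:**
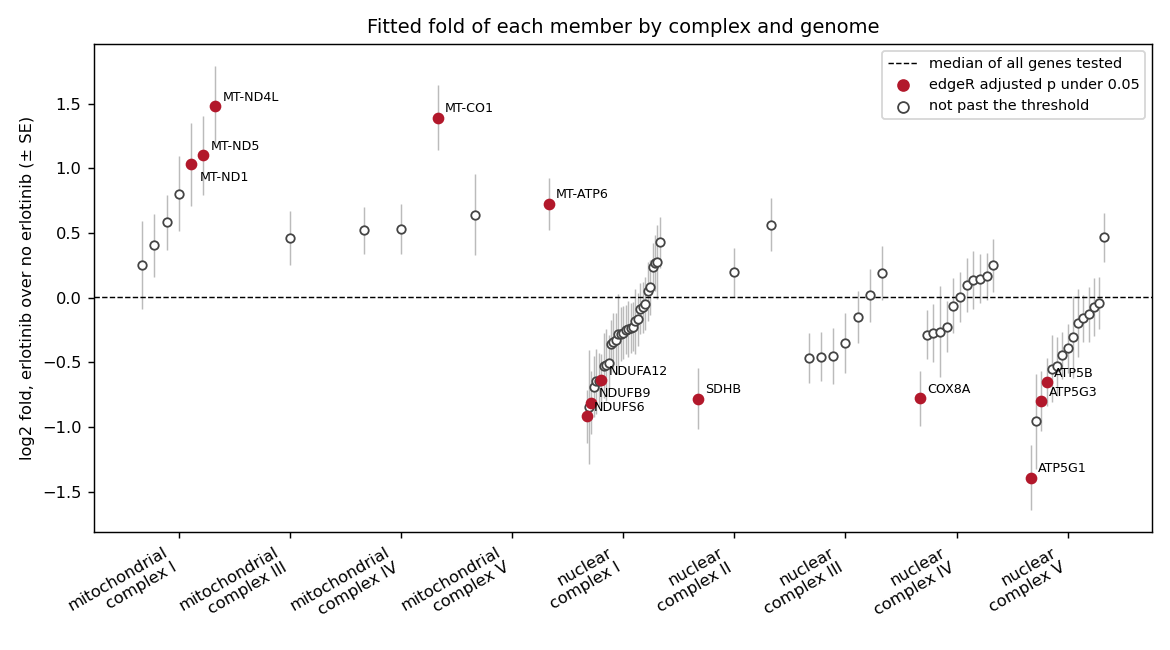
Fitted log2 fold of erlotinib over no erlotinib for each gene tested, with its SE, grouped by genome and complex, with filled points at edgeR adjusted p under 0.05. All 13 mitochondrial genes lie above 0, and 51 of 68 nuclear genes lie below it.

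The 7 mitochondrial subunits of complex I form the proton-pumping membrane arm. MT-ND4L was higher with erlotinib, at 1637, 807, 1389 and 1623 CPM in the erlotinib libraries, against 576 CPM with scrambled shRNA and 423 CPM in untreated cells (log2 fold 1.48 ± 0.31 SE, edgeR adjusted p = 0.00781). MT-ND5 was higher, at 4967, 3197, 4278 and 4784 CPM in the erlotinib libraries, against 2717 CPM with scrambled shRNA and 1368 CPM in untreated cells (log2 fold 1.10 ± 0.30 SE, edgeR adjusted p = 0.0271). MT-ND1 was higher, at 3169, 2800.1, 3068 and 2706 CPM in the erlotinib libraries, against 2067 CPM with scrambled shRNA and 858 CPM in untreated cells (log2 fold 1.03 ± 0.32 SE, edgeR adjusted p = 0.0444). In these 3 genes the groups did not overlap, and the library without virus or drug was the lowest. For MT-ND1 the log2 ratio of scrambled shRNA to untreated cells was 1.27, larger than the 0.44 of KDM5A shRNA to scrambled shRNA.

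The other 4 complex I genes of mitochondrial DNA did not pass the threshold. MT-ND4 stood at 9085, 6357, 7776 and 9395 CPM in the erlotinib libraries, against 6011 CPM with scrambled shRNA and 5134 CPM in untreated cells (log2 fold 0.58 ± 0.21 SE, edgeR adjusted p = 0.0693), without overlap. MT-ND6, read from the opposite strand to the other mitochondrial messengers, stood at 467, 263, 364 and 388 CPM in the erlotinib libraries, against 273 CPM with scrambled shRNA and 161 CPM in untreated cells (log2 fold 0.80 ± 0.29 SE, edgeR adjusted p = 0.0687), and here KDM5A shRNA lay just under scrambled shRNA. MT-ND2 stood at 3621, 2185, 2955 and 3764 CPM in the erlotinib libraries, against 2627 CPM with scrambled shRNA and 2218 CPM in untreated cells, with KDM5A shRNA below both libraries without drug. MT-ND3 was the exception to the pattern, at 1379, 936, 1247 and 1278 CPM in the erlotinib libraries, against 549 CPM with scrambled shRNA and 1559 CPM in untreated cells: untreated cells were the highest and scrambled shRNA the lowest of all 6 libraries. Its fitted log2 fold was 0.25 (edgeR adjusted p = 0.624).

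Complex IV, cytochrome c oxidase, has its catalytic core in 3 mitochondrial subunits, which carry the redox centres or flank them. MT-CO1, the haem- and copper-binding subunit, was higher with erlotinib, at 12890.3, 10230.0, 11718 and 12466 CPM in the erlotinib libraries, against 5784 CPM with scrambled shRNA and 3410.5 CPM in untreated cells (log2 fold 1.39 ± 0.25 SE, edgeR adjusted p = 0.00362). The lowest erlotinib library was well above the higher of the other 2. MT-CO1 kept its call in all 17 alternative settings, the only mitochondrial gene to do so. MT-CO2, which receives electrons from cytochrome c, stood at 7028, 5155, 6361 and 6423 CPM in the erlotinib libraries, against 4009.5 CPM with scrambled shRNA and 4881 CPM in untreated cells (log2 fold 0.53 ± 0.19 SE, edgeR adjusted p = 0.0676). MT-CO3 stood at 8531, 7303, 7455 and 6558 CPM in the erlotinib libraries, against 4854 CPM with scrambled shRNA and 5847 CPM in untreated cells (log2 fold 0.52 ± 0.18 SE, edgeR adjusted p = 0.0621). Neither passed the threshold, though the groups did not overlap in either.

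In complex III, MT-CYB, which carries the quinone sites, stood at 3699, 2536, 2847 and 2701 CPM in the erlotinib libraries, against 2355 CPM with scrambled shRNA and 2025 CPM in untreated cells without overlap (log2 fold 0.46 ± 0.21 SE, edgeR adjusted p = 0.132), short of the threshold. In ATP synthase, MT-ATP6 forms the proton channel with the c-ring and was higher with erlotinib, at 5411, 3754, 4386 and 4681 CPM in the erlotinib libraries, against 2876 CPM with scrambled shRNA and 2780.4 CPM in untreated cells (log2 fold 0.72 ± 0.20 SE, edgeR adjusted p = 0.025). MT-ATP8, a small membrane subunit, did not pass the threshold and overlapped between the groups, at 1888, 745, 1214 and 1462 CPM in the erlotinib libraries, against 800.4 CPM with scrambled shRNA and 943 CPM in untreated cells (log2 fold 0.64 ± 0.31 SE, edgeR adjusted p = 0.158). KDM5A shRNA was the lowest of all 6 libraries for MT-ATP8. These calls were sensitive to single libraries: over 17 alternative settings the call was kept in 15 for MT-ND4L, 13 for MT-ND5, 11 for MT-ND1 and 10 for MT-ATP6, and the number of mitochondrial genes called ranged between 2 and 10. Without CPI-455 or without both shRNAs 2 were called. Of all genes 7.39% and 4.83% were higher in these 2 settings, beside 10.0% with all 6 libraries. The median log2 fold of the 13 genes was 0.62 without the untreated library and 0.55 in the transduced libraries alone.

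**Figure D3:**
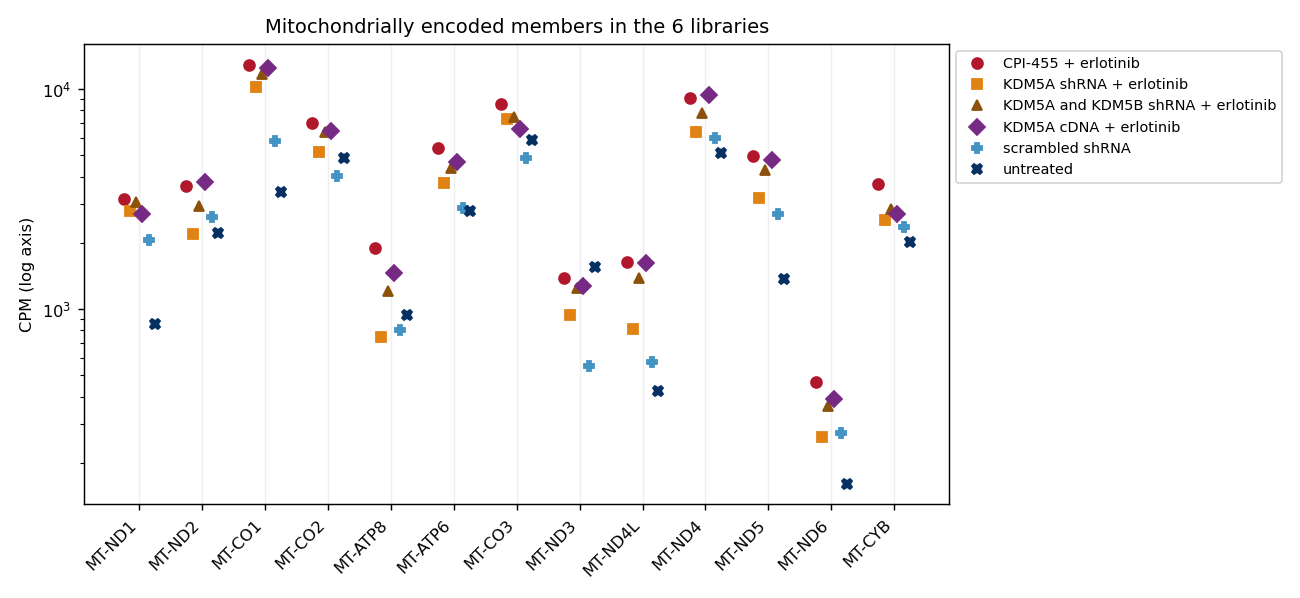
Level of each mitochondrial gene in CPM (log axis) in the 6 libraries, with genes in their order along the mitochondrial genome and 1 symbol per library. Untreated cells (dark crosses) are the lowest library for MT-ND1, MT-CO1, MT-ND4L and MT-ND5, and the highest for MT-ND3.

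MT-ATP8 and MT-ATP6 lie on a shared messenger and share bases, as do MT-ND4L and MT-ND4, so a UMI in the shared stretch belongs to both, and how such UMIs were assigned is not given in the sources used here. The stretches are shown because they join a called gene to one that was not called. The transcript sequences are from GENCODE (GRCh38), and capitals mark the bases held by both reading frames. The end of MT-ATP8 shares 46 bases with the start of MT-ATP6, and the end of MT-ND4L shares 7 bases with the start of MT-ND4.
MT-ATP8 and MT-ATP6: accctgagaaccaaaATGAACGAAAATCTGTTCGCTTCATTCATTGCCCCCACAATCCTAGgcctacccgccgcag
MT-ND4L and MT-ND4: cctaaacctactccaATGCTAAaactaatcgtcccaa
Within the first pair MT-ATP6 was called and MT-ATP8 was not, and within the second MT-ND4L was called and MT-ND4 was not. Since each pair lies on a shared messenger, its values are not those of separate messengers. They are also uncertain to the extent that reads were split between its genes.

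The nuclear subunits of complex I were 31 genes, all tested, of which 3 were lower with erlotinib (9.68%, beside 13.5% of all genes), with a median log2 fold of -0.27. The summed level was 6125, 6302, 5923 and 6428 CPM in the erlotinib libraries, against 7304 CPM with scrambled shRNA and 8577 CPM in untreated cells, without overlap. NDUFS6, an accessory subunit that binds zinc in the peripheral arm, was lower at 533, 544, 409 and 549 CPM in the erlotinib libraries, against 841 CPM with scrambled shRNA and 1138 CPM in untreated cells (log2 fold -0.91 ± 0.20 SE, edgeR adjusted p = 0.0109). NDUFB9, an accessory membrane-arm subunit, was lower at 263, 299, 302 and 376 CPM in the erlotinib libraries, against 678 CPM with scrambled shRNA and 437 CPM in untreated cells (log2 fold -0.81 ± 0.24 SE, edgeR adjusted p = 0.0355). NDUFA12, an accessory subunit of the peripheral arm, was lower at 91.6, 90.8, 114 and 110.2 CPM in the erlotinib libraries, against 175 CPM with scrambled shRNA and 149 CPM in untreated cells (log2 fold -0.64 ± 0.21 SE, edgeR adjusted p = 0.0477). The groups did not overlap in these 3 genes, but NDUFA12 kept its call in only 6 of 17 alternative settings, against 15 for NDUFS6 and 13 for NDUFB9. Among others NDUFB9 lost the call without the scrambled library, in which its level was the highest. The log2 fold of NDUFB9 ran between -1.15 and -0.44 over these settings.

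Other complex I genes did not pass the threshold. NDUFS3, a core subunit of the peripheral arm, stood at 96.1, 83.9, 51.0 and 79.6 CPM in the erlotinib libraries, against 138 CPM with scrambled shRNA and 114 CPM in untreated cells, without overlap (edgeR adjusted p = 0.0875). NDUFS5, an accessory subunit, overlapped between the groups at 752, 858, 675 and 725 CPM in the erlotinib libraries, against 712 CPM with scrambled shRNA and 921 CPM in untreated cells. NDUFA1 and NDUFB1 varied most between the libraries without drug. NDUFA1, an accessory subunit encoded on the X chromosome, stood at 499, 435, 478 and 556 CPM in the erlotinib libraries, against 341 CPM with scrambled shRNA and 898 CPM in untreated cells, and NDUFB1 at 33.2, 33.8, 33.1 and 33.9 CPM in the erlotinib libraries, against 22.4 CPM with scrambled shRNA and 98.6 CPM in untreated cells. For both, the erlotinib libraries lay between the 2 others.

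Complex II, succinate dehydrogenase, did not move as 1 unit. Its 3 genes in the files summed to 356, 362, 357 and 354 CPM in the erlotinib libraries, against 425 CPM with scrambled shRNA and 346 CPM in untreated cells, and the groups overlapped. SDHB, the iron-sulfur subunit, was lower at 88.1, 105, 85.4 and 94.9 CPM in the erlotinib libraries, against 202 CPM with scrambled shRNA and 129 CPM in untreated cells (log2 fold -0.78 ± 0.24 SE, edgeR adjusted p = 0.0376). SDHC, a membrane anchor, stood at 82.4, 82.1, 79.9 and 91.5 CPM in the erlotinib libraries, against 57.9 CPM with scrambled shRNA and 58.6 CPM in untreated cells, with every erlotinib library above both others, but did not pass the threshold (log2 fold 0.57 ± 0.21 SE, edgeR adjusted p = 0.0717). SDHA, the flavoprotein with the succinate site, stood at 185, 175, 192 and 168 CPM in the erlotinib libraries, against 165 CPM with scrambled shRNA and 158 CPM in untreated cells (edgeR adjusted p = 0.471). Pseudogene copies of SDHA held 93 UMIs over all libraries. SDHB therefore stood on the opposite side from its partners, and kept its call in 11 of 17 alternative settings. Among others it lost the call without the scrambled library, in which its level was the highest. Its log2 fold ran between -1.12 and -0.40 over these settings.

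None of the 7 nuclear genes of complex III passed the test (0 at an edgeR adjusted p under 0.05, beside 13.5% of all genes lower). At an unadjusted edgeR p under 0.05, 2 were lower, beside 2108 of all 10445 genes. DESeq2 and limma-voom called 0 of the 7 genes, and their median log2 fold was -0.35. Their sum was nearly the same in all erlotinib libraries, at 2144, 2165, 2141 and 2149 CPM in the erlotinib libraries, against 2518 CPM with scrambled shRNA and 2875 CPM in untreated cells, below both others. UQCRH, the hinge protein at the cytochrome c1 site, stood at 504, 457, 464 and 549 CPM in the erlotinib libraries, against 711 CPM with scrambled shRNA and 678 CPM in untreated cells, without overlap (log2 fold -0.45 ± 0.19 SE, edgeR adjusted p = 0.101). UQCRQ, a small membrane subunit, stood at 434, 389, 456 and 399.9 CPM in the erlotinib libraries, against 447 CPM with scrambled shRNA and 737 CPM in untreated cells, where scrambled shRNA lay among the erlotinib libraries. UQCRB, a subunit near the quinone site, overlapped at 486, 524, 554 and 459 CPM in the erlotinib libraries, against 423 CPM with scrambled shRNA and 607 CPM in untreated cells (log2 fold 0.02).

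Nuclear complex IV differed little between the groups. Its 14 genes summed to 5617, 6155, 6046 and 6160.1 CPM in the erlotinib libraries, against 6123 CPM with scrambled shRNA and 7015 CPM in untreated cells, overlapping, and its median log2 fold over the 12 tested was -0.03. Of the 12, 1 was called lower (8.33%, beside 13.5% of all genes). This was COX8A, a small structural subunit, at 459, 399.7, 397 and 586 CPM in the erlotinib libraries, against 742 CPM with scrambled shRNA and 882 CPM in untreated cells (log2 fold -0.78 ± 0.21 SE, edgeR adjusted p = 0.0257). The call was lost without the CPI-455 library, without the library with both shRNAs, without the untreated library and in the transduced libraries alone. COX7C stood at 759.9, 871, 856 and 834 CPM in the erlotinib libraries, against 697 CPM with scrambled shRNA and 1097 CPM in untreated cells, and COX4I1, the ubiquitous isoform of the subunit that binds ATP, at 636, 876, 788 and 724 CPM in the erlotinib libraries, against 783 CPM with scrambled shRNA and 669 CPM in untreated cells. Both overlapped between the groups. NDUFA4, first assigned to complex I and now counted as a complex IV subunit, stood at 568, 596, 594 and 685 CPM in the erlotinib libraries, against 769 CPM with scrambled shRNA and 761 CPM in untreated cells, without overlap, and did not pass (edgeR adjusted p = 0.289).

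Several complex IV subunits have isoforms, and the ubiquitous forms were well above the floor of 3 counts (0.758 to 5.08 CPM per library). COX6A1 lay between 320 and 483 CPM, COX6B1 between 473 and 658 CPM and COX7A2 between 535 and 686 CPM over all libraries. COX7A2L, which joins complexes III and IV into a supercomplex, lay between 161 and 236 CPM. None of these 4 passed the test, with log2 folds between -0.22 and 0.25. COX6B2, a testis isoform, reached at most 6.89 CPM. NDUFA4L2, a relative of NDUFA4 known to be induced in hypoxia, was at 1 to 2 UMIs in 3 erlotinib libraries and at 0 in the other 3 libraries, which allows up to 0.758 CPM in untreated cells. COX7B2, another testis isoform, lay between 19.3 and 44.1 CPM. The isoforms COX4I2, COX6A2, COX7A1 and COX8C were not analysed here.

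ATP synthase had the largest gap of the nuclear complexes. Its 16 genes summed to 4168, 4124, 4036 and 4350.2 CPM in the erlotinib libraries, against 5718 CPM with scrambled shRNA and 6130.2 CPM in untreated cells, a mean log2 difference of -0.51, without overlap. Of 15 tested, 3 were lower, beside 13.5% of all genes, and 14 had negative folds. ATP5B, the catalytic β subunit, was lower at 318, 280.0, 278 and 273 CPM in the erlotinib libraries, against 486 CPM with scrambled shRNA and 441 CPM in untreated cells (log2 fold -0.65 ± 0.18 SE, edgeR adjusted p = 0.0288). ATP5A1, its α partner, stood at 177, 149, 147 and 159 CPM in the erlotinib libraries, against 225 CPM with scrambled shRNA and 202 CPM in untreated cells, also without overlap, and did not pass (log2 fold -0.39 ± 0.19 SE, edgeR adjusted p = 0.153). ATP5E, the small ε subunit, and ATP5I, the e subunit, were instead set apart by untreated cells. ATP5E stood at 729, 673, 645 and 785 CPM in the erlotinib libraries, against 769 CPM with scrambled shRNA and 1346 CPM in untreated cells, and ATP5I at 235, 160.4, 193 and 259 CPM in the erlotinib libraries, against 207 CPM with scrambled shRNA and 639 CPM in untreated cells. Scrambled shRNA lay within the erlotinib range for both.

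The 3 genes for subunit c, which forms the rotor ring, encode the same mature protein with different import sequences, and they split. ATP5G1 was lower at 40.1, 67.0, 45.5 and 57.6 CPM in the erlotinib libraries, against 156 CPM with scrambled shRNA and 130.4 CPM in untreated cells (log2 fold -1.39 ± 0.25 SE, edgeR adjusted p = 0.00368), and this was the most negative fold of all 68 nuclear genes. It rests on 33 to 107 UMIs per erlotinib library, against 202 UMIs with scrambled shRNA and 516 UMIs in untreated cells. ATP5G3 was lower at 695, 874, 789 and 758 CPM in the erlotinib libraries, against 1697 CPM with scrambled shRNA and 1075 CPM in untreated cells (log2 fold -0.80 ± 0.23 SE, edgeR adjusted p = 0.0303). ATP5G2 stood at 373, 385, 389 and 391 CPM in the erlotinib libraries, against 277 CPM with scrambled shRNA and 296 CPM in untreated cells, all erlotinib libraries above both others, and did not pass the threshold (log2 fold 0.47 ± 0.19 SE, edgeR adjusted p = 0.0935). ATP5G1 kept its call in all 17 alternative settings, the only nuclear gene to do so. ATP5G3 lost it without the CPI-455 library, without the library with both shRNAs, without the KDM5A cDNA library and without the scrambled library, in which its level was the highest. Pseudogenes named after ATP5G2 held 150 UMIs and those named after ATP5G1 held 37 UMIs, and reads of such copies may be split between genes. Pseudogene UMIs were larger for MT-ATP6 (5843), MT-ND4 (2080), MT-ND2 (1821), COX6A1 (765), ATP5E (615) and MT-ND1 (533). For NDUFV2 they were 217 beside 660 of its own. With pseudogene copies added to each gene, all 13 calls were kept.

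**Figure D4:**
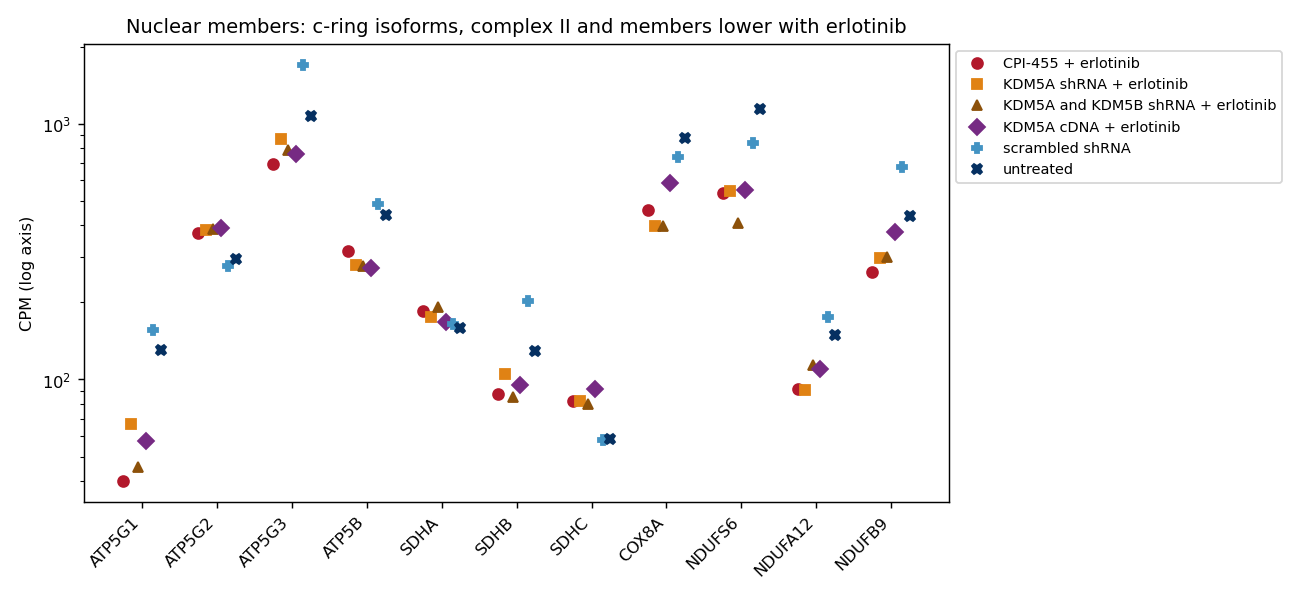
Levels in CPM (log axis) of the 3 subunit c genes, the complex II genes and the other nuclear genes called lower, with 1 symbol per library. ATP5G1, ATP5G3 and SDHB lie lower in the 4 erlotinib libraries, whereas ATP5G2 and SDHC lie higher in them.

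Promoters were compared because the nuclear genes shared a direction more often than single calls. RefSeq promoters (GRCh38.p14, 250 bases before to 50 after the start) matched 56 of the 71 nuclear genes, with 69 promoters. They were searched on both strands for 3 motifs: GCATGCG, the core of the NRF1 site, CCGGAAG for ETS factors such as GABPA, and ATGGCGG for YY1. GCATGCG was held by 18.8% of the 69 promoters and by 3.91% of all 35116 promoters in the table. CCGGAAG was held by 26.1% of them and 10.3% of all, and ATGGCGG by 26.1% of them and 5.55% of all. At least 1 motif was in 49.3% of them and in 17.5% of all. A full NRF1 palindrome is matched on both strands at overlapping positions and was counted once per promoter, and a match is a description of letters, not of a bound site.

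Genes with and without a motif had close median folds. The 31 tested genes with a motif had a median log2 fold of -0.28, with 3 called lower, and the 23 without had -0.24, with 2 called lower. Of all genes 13.5% were called lower. The promoters of the subunit c genes ATP5G1 and ATP5G2, which diverged, and of SDHB and NDUFS6, both called lower, are shown with matched motifs in capitals, 5′ to 3′ on the coding strand. ATP5G1 (chr17:48892537-48892836, plus strand), the most negative fold, held none of the 3 motifs in this window. ATP5G2 (chr12:53676034-53676333, minus strand, 1 of its 3 promoters) held the NRF1 core on both strands. SDHB (chr1:17053983-17054282, minus strand) and NDUFS6 (chr5:1801157-1801456, plus strand) held the NRF1 and YY1 motifs, and SDHB also the ETS motif.
ATP5G1: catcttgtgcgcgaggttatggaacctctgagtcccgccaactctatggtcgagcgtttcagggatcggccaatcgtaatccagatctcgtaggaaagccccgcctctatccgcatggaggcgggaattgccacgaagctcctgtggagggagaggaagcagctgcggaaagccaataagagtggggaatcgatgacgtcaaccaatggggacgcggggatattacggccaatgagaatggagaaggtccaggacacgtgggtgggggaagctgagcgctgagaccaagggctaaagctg
ATP5G2: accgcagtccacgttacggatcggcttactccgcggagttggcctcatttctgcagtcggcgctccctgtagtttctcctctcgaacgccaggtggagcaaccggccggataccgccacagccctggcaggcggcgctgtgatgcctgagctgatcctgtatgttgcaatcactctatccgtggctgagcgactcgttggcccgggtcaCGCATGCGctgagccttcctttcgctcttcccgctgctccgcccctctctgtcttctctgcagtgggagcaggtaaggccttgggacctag
SDHB: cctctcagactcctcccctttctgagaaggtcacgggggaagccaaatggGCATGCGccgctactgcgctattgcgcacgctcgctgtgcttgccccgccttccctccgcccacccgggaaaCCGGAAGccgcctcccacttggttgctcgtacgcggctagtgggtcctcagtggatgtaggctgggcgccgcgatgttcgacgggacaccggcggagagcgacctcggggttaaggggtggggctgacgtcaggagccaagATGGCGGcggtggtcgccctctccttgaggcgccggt
NDUFS6: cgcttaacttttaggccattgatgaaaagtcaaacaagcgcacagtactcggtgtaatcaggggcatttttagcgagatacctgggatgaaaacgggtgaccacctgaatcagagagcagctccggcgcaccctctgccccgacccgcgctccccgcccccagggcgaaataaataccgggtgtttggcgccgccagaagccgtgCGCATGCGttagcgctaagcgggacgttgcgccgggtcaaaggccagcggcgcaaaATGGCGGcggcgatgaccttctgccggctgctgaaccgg

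Single library pairs were compared without a test. A gene counted as different at 1.5-fold or more, among genes with 50 CPM or above in at least 1 of the pair, and intervals are 95% for counting error only. CPI-455 against untreated cells gave a summed mitochondrial log2 ratio of 1.01 (1.00 to 1.03), with 10 of 13 genes past the fold, beside 20.3% of all genes. The nuclear sum gave -0.44 (-0.46 to -0.41), with 16 of 66 genes (24.2%) below the fold, beside 29.4% of all genes. For the nuclear genes, therefore, the share past the fold was no larger than that of all genes.

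The other 3 pairs share the scrambled library. KDM5A shRNA against scrambled shRNA gave a mitochondrial log2 ratio of 0.38 (0.37 to 0.40), with 3 of 13 genes higher, beside 22.8% of all genes. KDM5A and KDM5B shRNA against scrambled shRNA gave 0.63 (0.61 to 0.65), with 8 of 13 higher, beside 25.2%. KDM5A cDNA against scrambled shRNA gave 0.71 (0.69 to 0.73), with 8 of 13 higher, beside 23.4%. The intervals do not overlap, so counting error does not cover the difference between these libraries, but erlotinib began on different days in them and each is 1 library. With no limit on mitochondrial UMIs the order of the last pair turned, to 0.89 with both shRNAs and 0.87 with KDM5A cDNA. The nuclear log2 ratios of the same pairs were -0.21, -0.26 and -0.18, beside medians over all genes of -0.13, -0.14 and -0.15. Lower by 1.5-fold were 16, 17 and 10 of 64 nuclear genes, beside 31.2%, 32.5% and 30.7% of all genes. MT-CO1 had log2 ratios of 0.82, 1.02 and 1.11, and ATP5G1 of -1.22, -1.78 and -1.44, in these pairs in the same order.

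The 2 libraries without drug also differed. Scrambled shRNA against untreated cells gave a mitochondrial log2 ratio of 0.17 (0.15 to 0.18) and a nuclear log2 ratio of -0.18 (-0.19 to -0.16). Here 4 mitochondrial genes were higher, beside 10.0% of all genes, and MT-ND3 alone was lower, beside 13.3%. Of 66 nuclear genes 9 were lower and 4 higher by 1.5-fold. The 4 higher with scrambled shRNA were ATP5G3, NDUFB9, SDHB and UQCRFS1, of which the first 3 were among the genes lower with erlotinib. Across all 6 libraries, untreated cells had the highest level of 29 of 68 nuclear genes (42.6%, beside 20.8% of all genes) and the lowest of 8 of 13 mitochondrial genes (61.5%, beside 14.0%). The untreated library differs in virus, serum and depth per cell from the scrambled library, and the part of each in these differences cannot be told apart.

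The shift was spread over cells. The median cell had 5.93%, 4.48%, 5.28% and 5.79% of its UMIs from the mitochondrial genes in the erlotinib libraries, against 3.06% with scrambled shRNA and 2.96% in untreated cells. For the nuclear genes the median was 1.75%, 1.88%, 1.77% and 1.86% in the erlotinib libraries, against 2.22% with scrambled shRNA and 2.46% in untreated cells. Cells with fewer mitochondrial than nuclear UMIs were rare with erlotinib: 1.49% with CPI-455 (exact 95% interval 0.307% to 4.28%), 2.41% with KDM5A shRNA (1.11% to 4.52%), 6.58% with both shRNAs (3.20% to 11.8%) and 4.58% with KDM5A cDNA (1.70% to 9.70%). They made up 26.6% with scrambled shRNA (21.4% to 32.4%) and 28% in untreated cells (25.5% to 30.7%). Cells are not replicates of a condition, and these intervals leave out the spread between libraries, of which there was 1 per condition. After each cell was thinned to 1000 UMIs, these shares were 1.22%, 2.71%, 6.45% and 3.81% in the erlotinib libraries, against 27.9% with scrambled shRNA and 29.9% in untreated cells. Thinning left out 38, 42, 28 and 26 shallower cells in the erlotinib libraries, against 41 with scrambled shRNA and 344 in untreated cells.

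**Figure D5:**
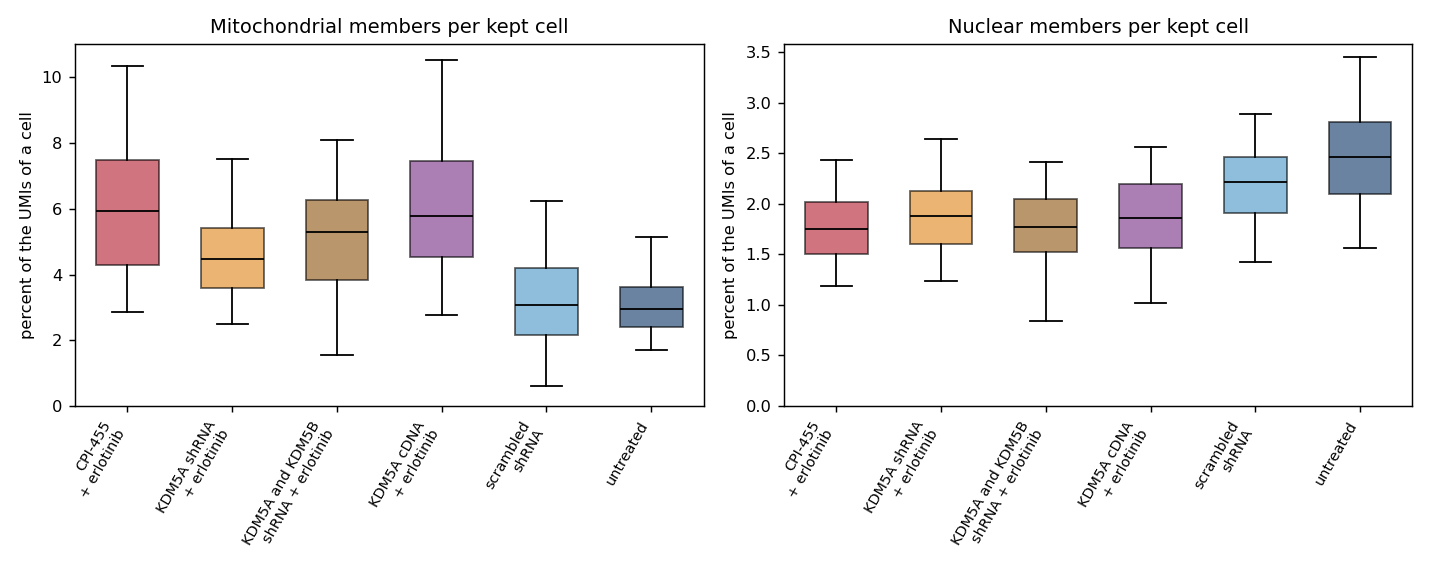
Percent of each kept cell's UMIs from the 13 mitochondrial genes (left) and from the 71 nuclear genes (right), with boxes at the quartiles, the line at the median and whiskers at the 5th and 95th percentiles of cells. Medians of the erlotinib libraries run between 4.48% and 5.93% on the left, against 3.06% with scrambled shRNA and 2.96% in untreated cells.

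Within libraries the relation of the mitochondrial and nuclear shares of a cell differed, with the most negative value in the KDM5A cDNA library. Spearman's rho across cells was -0.18, -0.09, -0.12 and -0.50 in the erlotinib libraries, against -0.22 with scrambled shRNA and 0.14 in untreated cells, over the cells counted above. Both shares have the same total below them, and with the nuclear share taken over non-mitochondrial UMIs rho was -0.05, 0.01, -0.04 and -0.41 in the erlotinib libraries, against -0.12 with scrambled shRNA and 0.19 in untreated cells. At 1000 UMIs the median cell had 15, 15, 14 and 16 of the 71 nuclear genes detected in the erlotinib libraries, against 18 with scrambled shRNA and 18 in untreated cells. The same cells had 11, 10, 11 and 12 of the 13 mitochondrial genes in the erlotinib libraries, against 10 with scrambled shRNA and 10 in untreated cells.

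Mitochondrial RNA outside kept cells moved with the groups too. Barcodes under 500 UMIs, which hold free RNA and poor cells, had 5.37%, 4.41%, 9.64% and 12.4% of UMIs from the mitochondrial genes in the erlotinib libraries, against 3.92% with scrambled shRNA and 3.63% in untreated cells. Its part in the levels above was not tested. With a limit of 10% on mitochondrial UMIs per cell the ratio was 2.79, 2.25, 2.64 and 2.42 in the erlotinib libraries, against 1.56 with scrambled shRNA and 1.26 in untreated cells, still without overlap.

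Some genes that supply or build the chain were lower too. Among 8 tested genes for cytochrome c and ubiquinone synthesis 2 were lower (25%, beside 13.5% of all genes). CYCS, cytochrome c itself, was lower at 103, 164, 124 and 176 CPM in the erlotinib libraries, against 462 CPM with scrambled shRNA and 583 CPM in untreated cells (log2 fold -1.83 ± 0.24 SE, edgeR adjusted p = 0.000705). COQ3, a methyltransferase of ubiquinone synthesis, was lower at 5.72, 5.64, 2.76 and 3.39 CPM in the erlotinib libraries, against 23.9 CPM with scrambled shRNA and 24.3 CPM in untreated cells (edgeR adjusted p = 0.00299). For COQ3 the values with both shRNAs and with KDM5A cDNA lie under the 3-count floors of those libraries, 4.13 and 5.08 CPM, so its fold is not given. The CYCS fold was larger in size than that of any nuclear subunit tested. Of 39 assembly factors 9 were lower (23.1%, beside 13.5% of all genes) and 0 higher, with a median log2 fold of -0.51. They included NDUFAF2, a complex I factor, at 19.5, 16.3, 23.4 and 35.6 CPM in the erlotinib libraries, against 66.4 CPM with scrambled shRNA and 92.8 CPM in untreated cells (log2 fold -1.77 ± 0.30 SE, edgeR adjusted p = 0.00282), and COX20, a chaperone of MT-CO2, at 76.7, 48.9, 56.5 and 91.5 CPM in the erlotinib libraries, against 157 CPM with scrambled shRNA and 189 CPM in untreated cells (log2 fold -1.32 ± 0.25 SE, edgeR adjusted p = 0.00499). The others called lower were NDUFAF4, TTC19, LYRM7, UQCC2, SCO1, COX17 and COA1.

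A list of mitochondrial gene expression holds genes that transcribe mitochondrial DNA and genes that stabilise or degrade its RNA. Any link of their levels to those of the mitochondrial messengers was not tested. All 20 genes of the list had negative folds, beside 5189 of all 10445 genes. Their median log2 fold was -0.56, and 4 were lower (20%, beside 13.5% of all genes). TFAM, which packages mitochondrial DNA and starts its transcription, was lower at 93.8, 101, 90.9 and 122 CPM in the erlotinib libraries, against 292 CPM with scrambled shRNA and 279 CPM in untreated cells (log2 fold -1.45 ± 0.20 SE, edgeR adjusted p = 0.000841). SLIRP, which with LRPPRC stabilises mitochondrial messengers, was lower at 488, 412, 455 and 527 CPM in the erlotinib libraries, against 839 CPM with scrambled shRNA and 1287 CPM in untreated cells (log2 fold -1.13 ± 0.21 SE, edgeR adjusted p = 0.00416). LRPPRC stood at 145, 99.6, 95.1 and 110.2 CPM in the erlotinib libraries, against 165 CPM with scrambled shRNA and 170.1 CPM in untreated cells and did not pass (edgeR adjusted p = 0.0911). PNPT1, a mitochondrial RNA-degrading enzyme, and TBRG4, a messenger-binding protein, were also lower, with log2 folds of -1.04 and -0.97 (edgeR adjusted p = 0.0442 and 0.0162).

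Of 68 tested proteins of the mitochondrial ribosome, 22 were lower (32.4%, beside 13.5%) and 0 higher, with a median log2 fold of -0.55. MRPL12 stood at 68.7, 85.2, 73.0 and 76.3 CPM in the erlotinib libraries, against 185 CPM with scrambled shRNA and 125 CPM in untreated cells, and was lower (edgeR adjusted p = 0.0129). MRPL41 stood at 102, 85.2, 106 and 137 CPM in the erlotinib libraries, against 281 CPM with scrambled shRNA and 186 CPM in untreated cells, and was lower (edgeR adjusted p = 0.0122). MRPL51, MRPS34, MRPL14 and MRPL33, which had the most UMIs of the list, did not pass. Their log2 folds were -0.52, -0.55, -0.41 and 0.11. Cytoplasmic ribosomal proteins were taken by symbol, and the 73 tested symbols include paralogs and RPL7P23p, which is named as a pseudogene. Of the 73, 2 were higher (2.74%, beside 10.0% of all genes) and 2 lower (2.74%, beside 13.5%), with a median log2 fold of 0.06. In the TCA cycle 2 of 11 genes were lower (18.2%, beside 13.5% of all genes). CS, citrate synthase, stood at 45.8, 38.8, 51.0 and 28.8 CPM in the erlotinib libraries, against 70.3 CPM with scrambled shRNA and 72.5 CPM in untreated cells (log2 fold -0.75 ± 0.24 SE, edgeR adjusted p = 0.0482), and SUCLG1, a succinyl-CoA ligase subunit, at 104, 80.8, 95.1 and 91.5 CPM in the erlotinib libraries, against 180.0 CPM with scrambled shRNA and 146 CPM in untreated cells (log2 fold -0.78 ± 0.20 SE, edgeR adjusted p = 0.0212).

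Regulators of mitochondrial biogenesis mostly did not pass. PPRC1, a coactivator related to PGC-1α, was lower at 8.01, 3.76, 4.13 and 6.78 CPM in the erlotinib libraries, against 17.0 CPM with scrambled shRNA and 14.2 CPM in untreated cells (log2 fold -1.45 ± 0.47 SE, edgeR adjusted p = 0.047), 1 of 6 tested, beside 13.5% of all genes. Its level with both shRNAs was at the floor of 3 counts. NRF1, GABPA, GABPB1, ESRRA and YY1 had log2 folds of 0.10, 0.12, -0.02, -0.16 and -0.16, with edgeR adjusted p-values of 0.907, 0.867, 0.97, 0.677 and 0.668. PPARGC1A, which encodes PGC-1α, and PPARGC1B had 6 and 13 UMIs over all libraries and were not tested.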

How the data were processed

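The authors deposited 1 table of counts per library, UMIs of each gene symbol in each barcode, whole numbers without normalization, as the values showed. Per the submitters' processing notes they used STAR and FastQC with the build GRCh37.p13 or hg19. Versions, the counting tool and the choice of barcodes are not given in the sources used here. No value column was left unused (0). UMIs of kept cells (thresholds in the report) were summed per library, and no doublet caller was run, since the cells are of a single line. CPM intervals are exact Poisson intervals. Intervals and floors (3 counts, 0.758 to 5.08 CPM) cover counting error only.

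The erlotinib comparison used edgeR 4.0.16 on UMIs summed per library (TMM scaling, filterByExpr, a robust quasi-likelihood fit, Benjamini-Hochberg adjustment over all genes tested, threshold 0.05). The fit took 4 libraries against 2, with a common biological coefficient of variation of 0.262. The 4 differ in their KDM5 manipulation, which enters the spread, and nothing says that libraries came from separate cultures, so p-values measure only the spread between these libraries. The script was tested on simulated data (200 changed genes of 10134), where 3 of 9954 unchanged genes were called. Library pairs had no test: ratios of CPM carry the exact conditional interval of 2 Poisson counts. Alternatives were RLE size factors, no count filter, DESeq2 1.42.0, limma-voom (limma 3.58.1), each library left out, transduced libraries only, other limits per cell, thinning, totals without mitochondrial RNA, pseudogene copies added and barcodes ending in N left out.

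Members and lists were chosen with earlier results of these data known. Named are the 13 mitochondrial genes, the 3 nuclear genes with the most UMIs in each complex, nuclear genes called, subunit isoforms, and from the other lists genes with the most UMIs or called. NDUFS3, NDUFB1, NDUFV2, ATP5A1, UQCRFS1, COX7B2 and some other genes were named after their values were seen. Genes were matched by symbol. Promoters are from RefSeq (GRCh38.p14) and serve as sequence only, since the counts rest on another build.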

Additional observations from a re-analysis of the deposited data

Results flagged for a closer look

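In 50 genes and sums the 4 erlotinib libraries were examined for 1 that stood far from the other 3. ATP5B stood at 318 CPM in the CPI-455 library, against 273 to 280 CPM in the other erlotinib libraries. NDUFS6 stood at 409 CPM in the library labelled KDM5A and KDM5B shRNA, against 533 to 549 CPM in the other erlotinib libraries. In both genes every erlotinib library, including the one apart, lay below the libraries without drug. Chance alone sets about 1 in 20 such groups apart.

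The mitochondrial ribosomal RNAs belong to no sum of the report. MT-RNR1 was at 1252 CPM in the lowest erlotinib library, above the 451 to 761 CPM of the libraries without drug. MT-RNR2 was at 22636 CPM in the lowest erlotinib library, above the 7572 to 13940 CPM of the libraries without drug (log2 fold 1.19 ± 0.25 SE, edgeR adjusted p = 0.00872). Both were higher by the edgeR test, MT-RNR1 with a log2 fold of 1.17 (edgeR adjusted p = 0.00826).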

How the results depend on the processing

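The difference of the mean log2 ratio of mitochondrial to nuclear UMIs (1.04) ran between 0.84 and 1.21 over 12 alternatives, and leaving out 1 library gave 0.87 to 1.21. No named gene's fold changed sign past the threshold in any alternative. The count of mitochondrial genes called higher (5) was 9 with limma-voom, 9 with no mitochondrial limit and 10 in cells thinned to 1000 UMIs. Of all genes 12.0%, 10.2% and 10.9% were higher in these settings, beside 10.0% in the fit of the report. The mitochondrial count was 2 without CPI-455 (7.39% of all genes higher) and 2 without both shRNAs (4.83%). It was 3 without KDM5A cDNA (8.54% of all genes higher) and 9 without KDM5A shRNA (12.2%). The count of nuclear genes called lower (8) was 13 with no count filter and 4 in the transduced libraries alone, and leaving out 1 library gave 2 to 9: 3 without CPI-455, 2 without both shRNAs and 5 without KDM5A cDNA or without untreated cells. With limma-voom 1 nuclear gene was called higher. The cause of these moves was not tested, but each library left out also removes a sample. DESeq2 called 5 mitochondrial and 6 nuclear genes, and of all genes 10.8% higher and 11.3% lower. With no mitochondrial limit, summed mitochondrial log2 ratios were 1.03 for CPI-455 against untreated cells, 0.89 for KDM5A and KDM5B shRNA and 0.87 for KDM5A cDNA against scrambled shRNA, and the nuclear ratio of KDM5A and KDM5B shRNA was -0.32. No paired analysis was possible because each condition has 1 library and the shared number 1 pairs nothing. Depth limits single genes: the shallowest library has 590091 UMIs, where 3 counts are 5.08 CPM. With RLE size factors the median log2 fold of all genes was 0.02, beside 0.01.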

Other observations

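Barcodes over the mitochondrial limit of 20% held few nuclear subunit UMIs beside their other RNA. Of their non-mitochondrial UMIs, 1.48%, 1.01%, 0.653% and 0.663% came from the 71 nuclear genes in the erlotinib libraries, against 0.459% with scrambled shRNA and 1.44% in untreated cells. Kept cells had 2.03%, 2.06%, 2.01% and 2.12% in the erlotinib libraries, against 2.33% with scrambled shRNA and 2.60% in untreated cells. The barcodes over the limit numbered 5, 5, 33 and 13 in the erlotinib libraries, against 3 with scrambled shRNA and 9 in untreated cells.

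RPL39L, a cytoplasmic ribosomal protein paralog, was lower with erlotinib at 62.9, 60.8, 53.7 and 64.4 CPM in the erlotinib libraries, against 195 CPM with scrambled shRNA and 209 CPM in untreated cells (log2 fold -1.70 ± 0.19 SE, edgeR adjusted p = 0.000308), whereas RPL13A was higher at 2815, 2207, 2644 and 2598 CPM in the erlotinib libraries, against 1817 CPM with scrambled shRNA and 1225 CPM in untreated cells (log2 fold 0.79 ± 0.23 SE, edgeR adjusted p = 0.0302).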
